A study of Mus musculus with 16 samples.

Results

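The 8 genes described here encode RNA-binding regulators of alternative splicing from 4 families: the Muscleblind genes Mbnl1, Mbnl2 and Mbnl3, the CELF genes Celf1 and Celf2, the polypyrimidine tract binding genes Ptbp1 and Ptbp3, and the Quaking gene Qk. They were taken by their GENCODE M21 symbols out of 55536 annotated genes, and their gene counts, their transcripts and their rows in the splicing table were read. The cells were mouse CD8+ T cells from OT-I donors, whose transgenic receptor recognizes the ovalbumin peptide SIINFEKL. The donors were Rag1-/- or Rag2-/-, which leaves the transgenic receptor as the only one their T cells can make. Before transfer the cells were electroporated with Cas9 complexed with a scrambled guide (Control gRNA) or with a guide against Tardbp (Tardbp gRNA), the gene of the splicing regulator TDP-43. All recipients were C57BL/6J mice that received SIINFEKL together with antibodies that trigger the costimulatory receptors 4-1BB and OX40, so both groups carried Cas9, antigen and costimulation. Cells were sorted by flow cytometry on day 4 by the labels, while the study's methods give a somewhat shorter time. Each group had 8 libraries, which by the methods came from separate recipient mice of both sexes that were adult or near adult. Every cell of the Tardbp gRNA group was exposed to 1 guide, and cells that kept an intact Tardbp allele were not removed.

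Muscleblind proteins bind YGCY-type motifs and promote adult patterns of splicing, and in muscle the CELF proteins, which bind GU-rich RNA, often act on the same exons in the other direction. PTB proteins bind pyrimidine-rich tracts and mostly repress the exons beside them, and Quaking proteins bind ACUAA-type motifs near introns and in 3′ regions of messenger RNAs. Many genes of these families control their own RNA and that of their paralogs through short alternative exons, and both CELF2 and PTBP1 are known for roles in T cells.

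Several exons of these genes have a counterpart of the same length and partly the same sequence in a paralog. They are shown because the inclusion values below are set side by side exon by exon. All lie in coding sequence on GRCm38, are written 5′ to 3′ on the strand of the gene from GENCODE M21 transcripts, and have capitals where every exon in the set carries the same base. The 54-base exons of Mbnl1 (chr3:60614683-60614736, + strand) and Mbnl2 (chr14:120395712-120395765, + strand) matched at 46 positions, or 85.2%. Each adds 18 codons to the messenger RNA, in a part of the protein known to govern its place in the nucleus.
Mbnl1 54-base exon: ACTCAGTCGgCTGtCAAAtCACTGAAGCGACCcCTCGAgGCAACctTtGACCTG
Mbnl2 54-base exon: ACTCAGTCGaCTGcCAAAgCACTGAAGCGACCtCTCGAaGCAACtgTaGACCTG

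A 95-base exon occurred in all 3 Muscleblind genes, at chr3:60622146-60622240 in Mbnl1, chr14:120404638-120404732 in Mbnl2 and chrX:51123817-51123911 on the - strand in Mbnl3. All 3 exons shared 67 of 95 bases, and the Mbnl1 and Mbnl2 exons shared 81. Since 95 is not a multiple of 3, skipping this exon shifts the reading frame.
Mbnl1 95-base exon: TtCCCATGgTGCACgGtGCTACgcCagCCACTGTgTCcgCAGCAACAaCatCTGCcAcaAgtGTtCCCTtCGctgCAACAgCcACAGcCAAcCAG
Mbnl2 95-base exon: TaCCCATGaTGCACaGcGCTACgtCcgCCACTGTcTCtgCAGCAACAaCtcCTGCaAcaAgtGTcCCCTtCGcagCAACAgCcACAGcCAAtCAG
Mbnl3 95-base exon: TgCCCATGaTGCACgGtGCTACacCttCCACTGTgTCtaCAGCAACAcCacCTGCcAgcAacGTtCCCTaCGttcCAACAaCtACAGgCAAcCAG

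A 36-base exon of 12 codons occurred in Mbnl1 (chr3:60621423-60621458) and in Mbnl3 (chrX:51126126-51126161, - strand), with 26 identical positions.
Mbnl1 36-base exon: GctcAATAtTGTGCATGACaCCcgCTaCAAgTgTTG
Mbnl3 36-base exon: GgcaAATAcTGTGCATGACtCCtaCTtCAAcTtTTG

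The PTB genes share a 34-base exon whose loss shifts the frame and is a known means by which PTB proteins lower each other's levels. It lies at chr10:79862014-79862047 in Ptbp1, at chr4:59485339-59485372 on the - strand in Ptbp3, and at chr3:119724612-119724645 on the - strand in Ptbp2, the neuronal paralog, which is shown for comparison. The Ptbp1 and Ptbp2 exons matched at 26 of 34 positions, and 19 were the same in all 3.
Ptbp1 34-base exon: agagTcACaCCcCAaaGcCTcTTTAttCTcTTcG
Ptbp2 34-base exon: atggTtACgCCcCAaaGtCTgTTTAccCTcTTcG
Ptbp3 34-base exon: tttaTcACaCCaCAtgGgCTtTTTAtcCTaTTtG

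Ptbp1 also has a 78-base cassette exon (chr10:79860117-79860194, + strand) of 26 codons, known to set how strongly the protein represses its targets, and it is shown because it had the widest difference in inclusion among the core exons of Ptbp1. The 144-base exon of Celf2 (chr2:6549832-6549975, - strand), of 48 codons, is shown for the same reason.
Ptbp1 78-base exon: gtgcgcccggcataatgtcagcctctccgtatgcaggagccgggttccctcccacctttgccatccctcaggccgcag
Celf2 144-base exon: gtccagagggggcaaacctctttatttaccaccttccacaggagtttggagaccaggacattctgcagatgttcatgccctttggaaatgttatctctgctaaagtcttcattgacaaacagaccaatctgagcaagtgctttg

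The libraries held 73649630 to 93893357 estimated counts over all annotated genes with Control gRNA and 56016533 to 94801105 with Tardbp gRNA. The targeted gene, Tardbp, ran from 171.8 to 206.9 CPM (counts scaled to library size by the TMM method) with Control gRNA and from 110.4 to 147.2 with Tardbp gRNA, with no overlap. Its log2 fold change was -0.51 ± 0.056 (SE, n = 8 per group, edgeR adjusted p = 8.07e-07), and a count of its RNA does not separate edited from intact alleles. The study reports, from immunoblots of pooled cells, that cells given this guide did not make the protein. The RNA concentration before dilution, which has no unit in the deposited annotation, was 34.9 to 197.1 with Control gRNA and 10.1 to 24.0 with Tardbp gRNA. The 6 CD8 T cell markers summed to 3002 to 3727 TPM, a level scaled to transcript length and library size, with Control gRNA and 4298 to 5292 with Tardbp gRNA, and none of the 6 was at 0 in all libraries of a group. Markers of other cells were far lower. The 6 B cell markers summed to 11 to 20.5 against 17.4 to 29.2 TPM, with Pax5 at 0 throughout Tardbp gRNA, the 6 myeloid markers to 23.1 to 45.8 against 34.1 to 101.0, the 3 CD4 T cell markers to 2.43 to 17.2 against 3.6 to 11.7, the 2 NK cell markers to 0.403 to 3.01 against 0.724 to 3.42 and the 5 red cell precursor markers to 1.0 to 37.7 against 19.0 to 366.9. The 5 proliferation genes summed to 1625 to 1942 against 1327 to 1565. The part of these marker genes in the results below was not tested.

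Per length, the members spanned a wide range. In Control gRNA, Ptbp1 stood at 281.2 ± 18.1 TPM (SD, n = 8) and Mbnl1 at 264.0 ± 37.1, with overlapping ranges. Celf2 followed at 145.9 ± 18.4, then Celf1 at 45.1 ± 2.97, each apart from its neighbors. Ptbp3 at 31.8 ± 2.57 and Mbnl3 at 25.4 ± 1.70 overlapped each other, Mbnl2 was lower at 10.6 ± 2.45, and Qk was lowest at 2.29 ± 0.314. In Tardbp gRNA, Mbnl1 came first at 233.1 ± 23.6 TPM and Ptbp1 was next at 169.8 ± 31.6, although their ranges still overlapped. The rest kept the same order, from Celf2 at 121.5 ± 21.9, whose range overlapped that of Ptbp1, to Qk at 2.30 ± 0.453. The neighbors Celf1 and Ptbp3, and Mbnl3 and Mbnl2, overlapped with Tardbp gRNA, whereas Ptbp3 and Mbnl3 were apart. In bulk RNA, fewer cells of a type and less RNA per cell cannot be told apart.

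The first comparison asked whether the RNA of these regulators differed between Tardbp gRNA and Control gRNA. Ptbp1, Mbnl3, Celf1 and Mbnl1 were lower, Mbnl2 was higher, and Celf2, Ptbp3 and Qk did not pass the test. All 8 members passed the filter on low counts. Of them 5 were called by edgeR, 1 up and 4 down, in a table where 46.7% of the 16650 tested genes were called, so calls were common across the table and the count sets the members apart little. In 3 members all 8 Tardbp gRNA libraries lay below all 8 Control gRNA libraries, while 16.9% of all tested genes had groups that did not overlap. The median log2 fold change over all tested genes was 0.05. The groups did not overlap in RNA concentration, and with its log2 value as a covariate 1 member, Ptbp1, was called among 2697 genes.

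Ptbp1, the broadly expressed repressor of the PTB family, had the largest change of the members. Its level ran from 445.7 to 511.6 CPM with Control gRNA (median 494.6) and from 223.5 to 418.6 with Tardbp gRNA (median 313.6). The groups did not overlap, and the spread was wider with Tardbp gRNA. The mean fell to 65.2% of the control mean, a log2 fold change of -0.62 ± 0.086 (SE, n = 8 per group, edgeR adjusted p = 1.15e-05). The fall was as large in the 3 libraries of each group numbered 1 to 3 alone (log2 fold change -0.65, adjusted p = 0.0750) and in the 5 numbered 4 to 8 alone (-0.62, adjusted p = 6.34e-06). With the RNA concentration as a covariate it was -0.59 (adjusted p = 0.0341).

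Ptbp3, the paralog found in blood cells, did not pass. Its libraries ranged from 91.3 to 125.4 CPM with Control gRNA (median 108.1) and from 91.8 to 115.6 with Tardbp gRNA (median 106.9). The groups overlapped almost fully, and the log2 fold change was -0.02 with an approximate 95% interval of -0.15 to 0.10 (adjusted p = 0.802).

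Mbnl3, the X-linked Muscleblind gene, lay between its paralogs in level. It ran from 35.7 to 47.1 CPM with Control gRNA (median 40.0) and from 26.7 to 32.6 with Tardbp gRNA (median 28.1). All Tardbp gRNA libraries were below all controls, and the log2 fold change was -0.50 ± 0.063 (SE, n = 8 per group, adjusted p = 4.17e-06). When the log2 RNA concentration was a covariate, the log2 fold change was -0.34 and the call was lost (adjusted p = 0.0735).

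Mbnl1, the most abundant Muscleblind member, was lower by a small amount. Control gRNA libraries ran from 418.3 to 541.7 CPM (median 474.1) and Tardbp gRNA libraries from 371.2 to 452.9 (median 439.8). The groups overlapped, and the log2 fold change of -0.16 ± 0.060 (SE, n = 8 per group) gave an adjusted p of 0.0348. The call was lost without Control gRNA library 2 (adjusted p = 0.0586), 3 (0.0764) or 5 (0.0668), or without Tardbp gRNA library 3 (0.0706), and with no filter on low counts (0.0505). The log2 fold change was -0.28 in libraries 1 to 3 alone (adjusted p = 0.130) and -0.11 in libraries 4 to 8 alone (0.234).

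Mbnl2 was the member that rose. It ran from 12.8 to 24.9 CPM with Control gRNA (median 16.8) and from 19.8 to 29.4 with Tardbp gRNA (median 21.9), and the groups overlapped. Within the libraries numbered 1 to 3, however, the controls lay at 22.2 to 24.9 CPM and Tardbp gRNA at 27.7 to 29.4, and within those numbered 4 to 8 at 12.8 to 17.5 and 19.8 to 22, so the groups were apart in both ranges of numbers. The log2 fold change was 0.38 ± 0.145 (SE, n = 8 per group, adjusted p = 0.0390). The division by numbers was seen in the values, is not named as a batch by the labels, and is no independent support. The call was fragile, since it was kept when 5 of the 16 libraries were left out in turn and lost for the other 11 (adjusted p up to 0.101), and the log2 fold change was 0.23 in libraries 1 to 3 alone (adjusted p = 0.222) and 0.48 in libraries 4 to 8 alone (adjusted p = 0.00116). In edgeR it was kept with a replicate block (adjusted p = 0.00119) and with the division by numbers as a term (0.000139), which was not planned. It was lost with no filter on low counts (0.0583) and with the RNA concentration as a covariate (0.665).

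Celf1, a regulator of splicing and of the decay of GU-rich messenger RNAs, ran from 182.7 to 214.5 CPM with Control gRNA (median 196.3) and from 132.1 to 180.5 with Tardbp gRNA (median 161.3). The groups did not overlap, and the log2 fold change was -0.30 ± 0.054 (SE, n = 8 per group, adjusted p = 0.000164). With the RNA concentration as a covariate it was -0.28 and no longer passed (adjusted p = 0.117).

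Celf2, the more abundant CELF gene of these cells, was at nearly the same level in both groups. It ran from 301.0 to 356.1 CPM with Control gRNA (median 316.4) and from 299.0 to 353.4 with Tardbp gRNA (median 317.4). The means were 321.0 CPM in each group, with a log2 fold change of 0.00 and an interval of -0.09 to 0.09 (adjusted p = 0.997). The TPM means above, which weight each transcript by its length, were further apart than these counts, and were not tested.

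Qk, whose proteins also act on RNA stability, was low in every library. Its range was 9.17 to 15.5 CPM with Control gRNA (median 10.9) and 9.22 to 14.9 with Tardbp gRNA (median 10.9). The log2 fold change of 0.07 had an interval of -0.16 to 0.29 (adjusted p = 0.663).

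**Figure D1:**
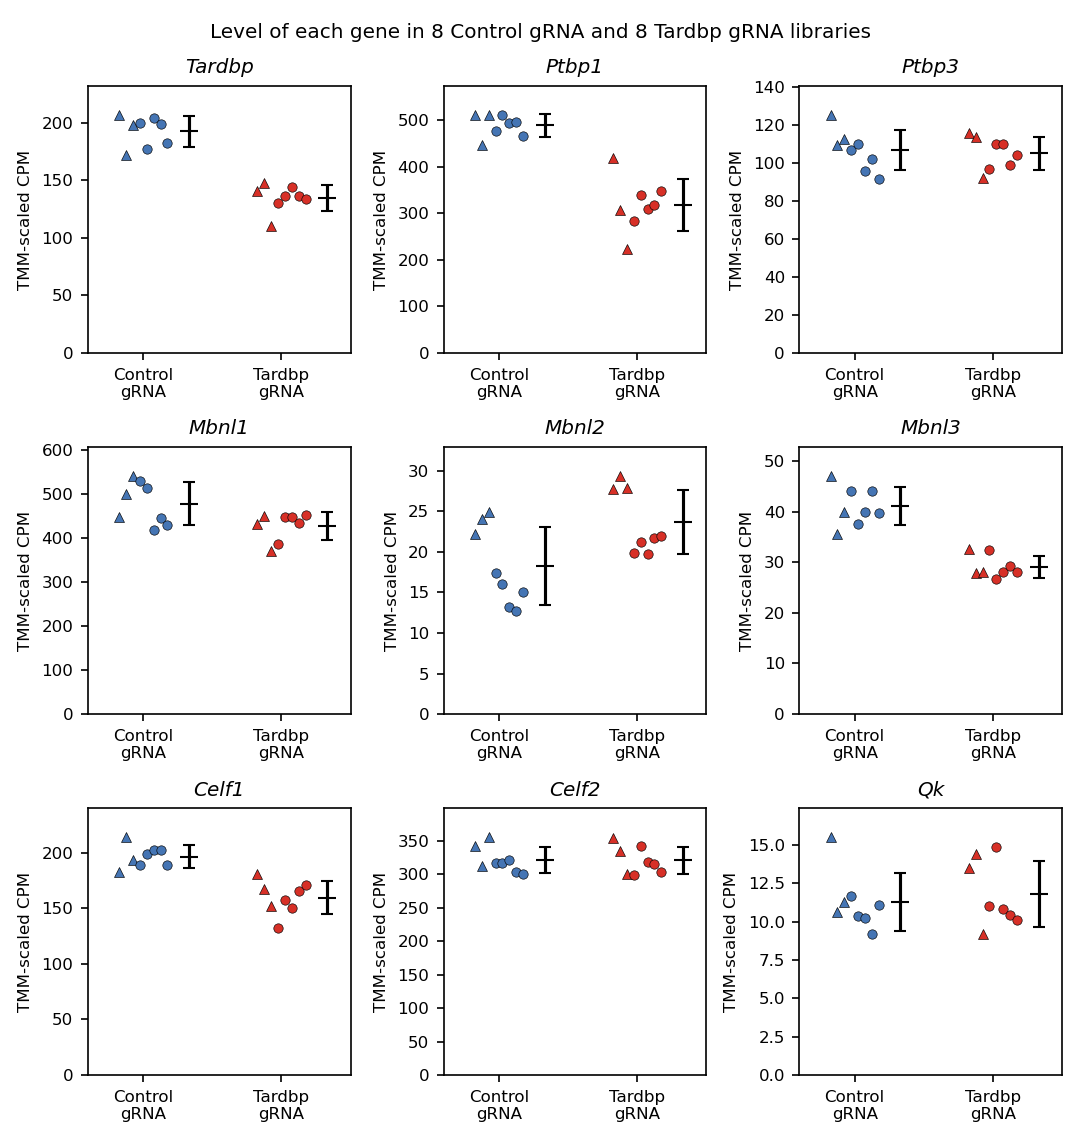
Level of Tardbp and of each member gene in TMM-scaled CPM (y axis, from 0), with 1 point per library (triangles for libraries numbered 1 to 3, circles for 4 to 8) and the mean ± SD of 8 libraries as a bar. In Ptbp1, Mbnl3, Celf1 and Tardbp all Tardbp gRNA points lie below all Control gRNA points, and in Mbnl2 the groups separate within the triangles and within the circles.

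By these calls families did not move as blocks, but differences between paralogs were not tested, and the calls of Mbnl1 and Mbnl2 were fragile. Of the Muscleblind genes, 2 fell and 1 rose, while of the CELF genes and of the PTB genes 1 fell and 1 did not pass in each pair. No interaction of the deposited sex letter (M in 3 Control gRNA and 5 Tardbp gRNA libraries) with the contrast passed in edgeR, in 0 of 8 members and 0 of 16650 genes, with 0 members and 662 genes at an unadjusted p under 0.05. With the letter as a covariate Mbnl2 no longer passed (log2 fold change 0.34, adjusted p = 0.0760).

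A list of 42 other splicing regulators was read beside them, of which 23 passed the filter. Of these 9 were called, 4 up and 5 down, and their median log2 fold change was -0.02. Among those that fell, Raver1, a PTB-binding corepressor, had a log2 fold change of -0.63 ± 0.101 (adjusted p = 4.87e-05), close to that of Ptbp1. Sf1, which recognizes the branch point, had -0.53 ± 0.055 (adjusted p = 4.37e-07), and Matr3, another partner of PTB proteins, had -0.37 ± 0.044 (adjusted p = 2.01e-06), both with no overlap between groups. Khsrp, which binds pyrimidine and AU-rich RNA, had -0.47 and Zfr -0.19. The genes that rose were Rbms1 at 0.48, the Musashi gene Msi2 at 0.45, Ptbp2 at 0.21 with an adjusted p of 0.04998 at the edge of the threshold, and Tia1, a binder of U-rich RNA, at 0.20.

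**Figure D2:**
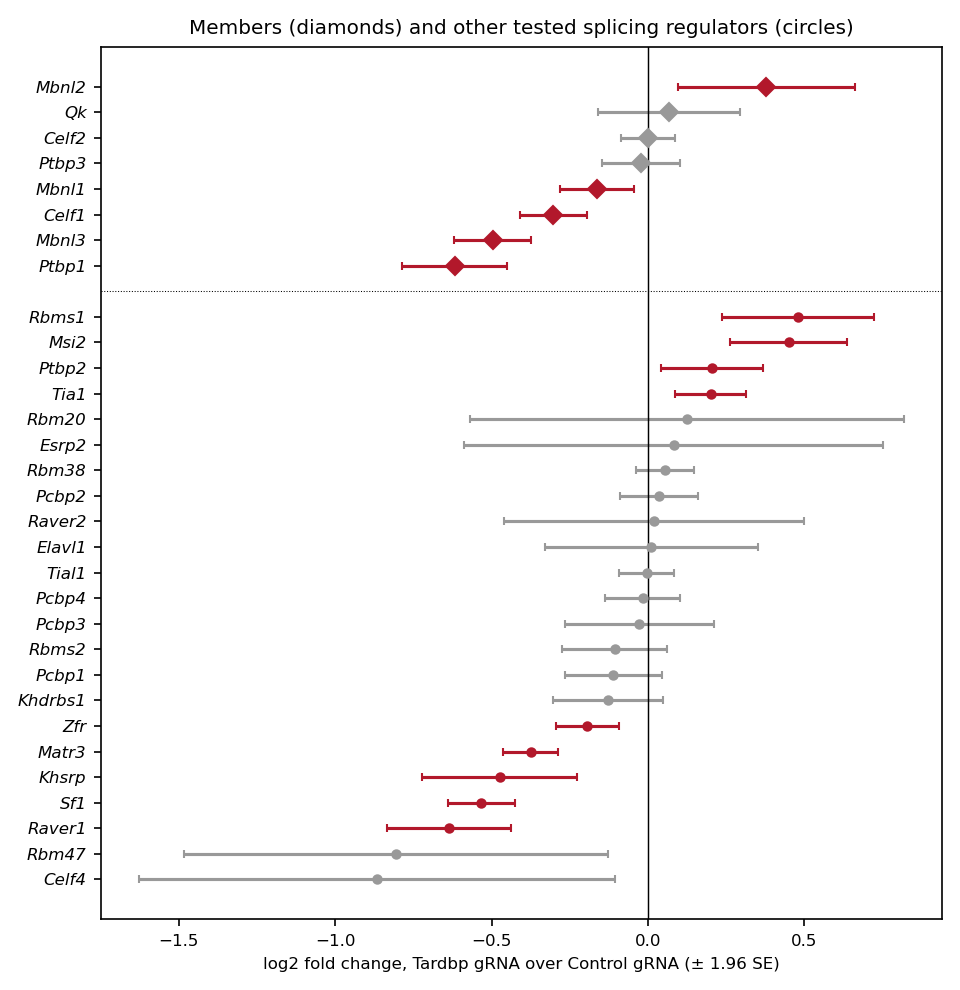
Log2 fold change of Tardbp gRNA over Control gRNA (x axis) with approximate 95% intervals, for the 8 members (diamonds, top) and 23 other tested splicing regulators (circles, below), with red for an edgeR adjusted p under 0.05. Ptbp1 lies at -0.62 and Mbnl2 at 0.38, and the other regulators are spread on both sides of 0.

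As a description over 16 libraries, after group means were taken off, the 28 pairs of members had Pearson correlations of log2 CPM from -0.32 to 0.76 (median 0.35), with 23 above 0. All points share the libraries and their depth. Among 8976 genes searched, the gene most like each member was Tmem229b for Mbnl1 (r = 0.949), Ppm1j for Mbnl2 (0.933), Hspa8 for Mbnl3 (0.874), Sema4d for Celf1 (0.879), Ndufs1 for Celf2 (0.923), 2310022A10Rik for Ptbp1 (0.933), Slc38a1 for Ptbp3 (0.838) and mt-Nd1 for Qk (0.848). No 2 members had the same nearest gene.

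The transcripts of the members were compared next. Of their 119 annotated transcripts 67 passed the filter, and 5 were called by edgeR, 3 up and 2 down, while 16.6% of the 40897 tested transcripts were called. The clearest changes were in 2 Mbnl1 models that the annotation marks as retained introns. Mbnl1-224, a single exon of 2728 bases in the 5′ part of the gene (chr3:60473068-60475795), ran from 3.47 to 6.98 CPM with Control gRNA (median 4.73) and from 7.51 to 10.6 with Tardbp gRNA (median 8.71). The groups did not overlap, and the log2 fold change was 0.84 ± 0.155 (SE, n = 8 per group, adjusted p = 0.00118).

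Mbnl1-225, with 2 exons over chr3:60501265-60531622, ran from 4.99 to 12.6 CPM (median 7.49) with Control gRNA and from 9.89 to 24.6 (median 16) with Tardbp gRNA, and rose by 0.97 ± 0.237 on the log2 scale (adjusted p = 0.00929). Both Mbnl1 calls were kept whichever library was left out. The protein-coding Celf1-208, which ran from 0.628 to 11.5 CPM with Control gRNA and from 0.136 to 2.23 with Tardbp gRNA, fell by 2.36 ± 0.648 on the log2 scale (adjusted p = 0.0191, and 0.0112 to 0.0457 when 1 library was left out). The calls of the protein-coding Mbnl3-202 (13.9 ± 6.21 against 6.95 ± 2.90 CPM, SD, n = 8, log2 fold change -1.0, adjusted p = 0.0386) and of the retained intron model Ptbp3-206 (0.156 ± 0.131 against 0.439 ± 0.261 CPM, 1.49, adjusted p = 0.0403) were kept in 6 and in 4 of 16 such fits. The Mbnl1 gene as a whole fell while these Mbnl1 models rose.

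Measured as a share of the counts of its gene, no member transcript was called at an adjusted p under 0.05 by limma with a difference over 0.1 (0 of 67, with 11 at an unadjusted p under 0.05, against calls in 0.64% of 32819 transcripts tested). Leaving out the limit on size, 3 Mbnl1 transcripts of the 67 had an adjusted p under 0.05, as did 4.42% of all transcripts tested. The share of Mbnl1-224 rose from 0.00992 ± 0.00205 (SD, n = 8) to 0.0207 ± 0.00327 (adjusted p = 0.000911), that of Mbnl1-225 from 0.0168 ± 0.00526 to 0.0389 ± 0.0145 (0.0289), and that of the protein-coding Mbnl1-221 from 0.0253 ± 0.00438 to 0.0354 ± 0.00450 (0.0194). These transcripts make up a small part of the counts of Mbnl1. The adjusted p of Mbnl1-225 was no longer under 0.05 in 7 of 16 fits that left out 1 library (up to 0.0604), and those of the other two stayed under it in all 16.

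The models that carry most of each gene were spread widely between replicates. In Mbnl1 the largest shares with Control gRNA were 0.271 ± 0.126 for Mbnl1-218, 0.235 ± 0.122 for Mbnl1-211 and 0.140 ± 0.0850 for Mbnl1-207, and Mbnl1-201 held 0.176 ± 0.0930 with Tardbp gRNA. In Ptbp1, Ptbp1-216 held 0.400 ± 0.190 and 0.355 ± 0.164, and Ptbp1-206 held 0.270 ± 0.202 with Control gRNA and 0.465 ± 0.160 with Tardbp gRNA, the widest difference in any member (0.196), which did not pass (limma adjusted p = 0.276). In Ptbp1, Ptbp1-202 (0.204 against 0.126) and the retained intron model Ptbp1-205 (0.119 against 0.0400) also held a share over 0.1 with Control gRNA.

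In the other members 1 to 3 protein-coding models led. Qk-204 held 0.852 ± 0.0555 against 0.856 ± 0.0544 of Qk, with Qk-201 at 0.110 and 0.125. Mbnl3-203 held 0.654 ± 0.138 against 0.742 ± 0.112 and Mbnl3-202 0.328 against 0.243. Mbnl2-204 held 0.630 ± 0.137 against 0.537 ± 0.0895, with Mbnl2-201 at 0.141 and 0.187 and Mbnl2-202 at 0.0924 and 0.116. Celf2-202 held 0.465 ± 0.129 against 0.486 ± 0.212, and Celf2-224 0.318 against 0.245.

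Celf1 was split between Celf1-214 (0.404 ± 0.158 against 0.384 ± 0.168), Celf1-203 (0.299 against 0.323) and Celf1-202 (0.167 against 0.140). Ptbp3 was split between Ptbp3-212 (0.451 ± 0.161 against 0.529 ± 0.135) and Ptbp3-201 (0.418 ± 0.125 against 0.377 ± 0.122). For these Celf1 and Ptbp3 models the differences were smaller than the SD of either group.

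Added up over all models marked as retained introns, the share in Mbnl1 was 0.0612 ± 0.00862 (SD, n = 8, range 0.0508 to 0.0719) with Control gRNA and 0.0984 ± 0.0197 (0.0771 to 0.140) with Tardbp gRNA. The groups did not overlap and limma gave an adjusted p of 0.00559. This sum includes Mbnl1-224 and Mbnl1-225, whose shares rose by 0.0108 and 0.0222, so it is not a separate result. Mbnl1 was the 1 member of 7 tested for this measure that passed, where 9.98% of 7257 genes did. Of the 7, 4 had an unadjusted p under 0.05 in limma. The call of Mbnl1 was kept whichever library was left out, with a difference of 0.0313 to 0.0403. Mbnl2, at 0.0678 ± 0.0255 against 0.0992 ± 0.0200 (adjusted p = 0.0976), and Ptbp3, at 0.00156 against 0.00444 (adjusted p = 0.0869), did not pass, nor did Ptbp1, at 0.122 ± 0.0843 against 0.0458 ± 0.0509 (adjusted p = 0.192). For the share in transcripts marked for nonsense-mediated decay none of the 4 members tested passed in limma, with 0 at an unadjusted p under 0.05, and 0.678% of 3542 tested genes did.

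**Figure D3:**
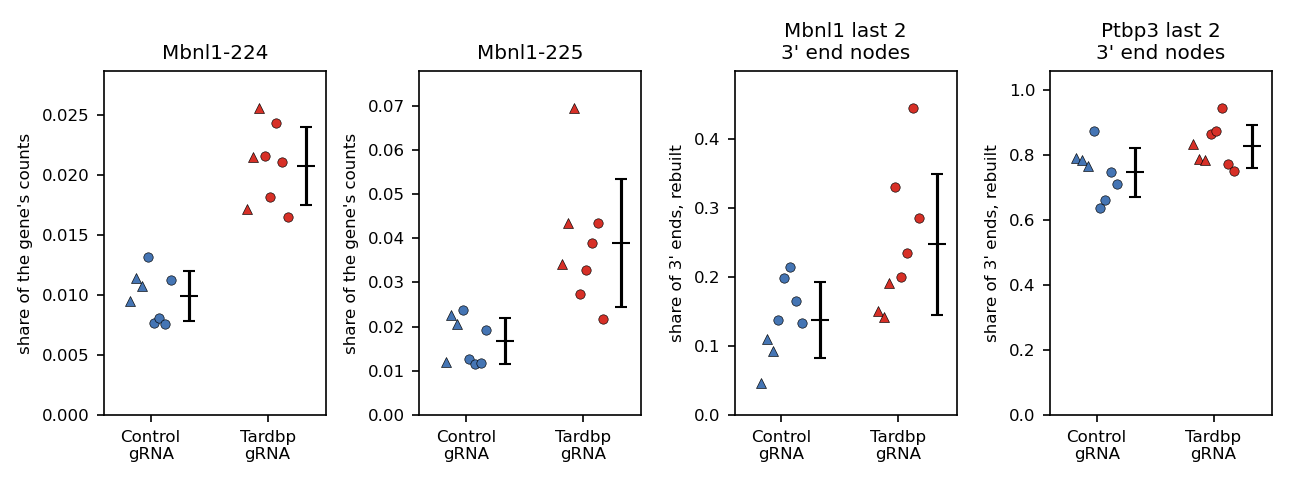
Share of Mbnl1 counts in Mbnl1-224 and Mbnl1-225 (left panels) and rebuilt share of 3′ ends in the last 2 nodes of Mbnl1 and Ptbp3 (right panels), per library (triangles for numbers 1 to 3, circles for 4 to 8), with the mean ± SD of 8 libraries. The groups do not overlap for Mbnl1-224 and overlap in the other panels.

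Splicing was then compared node by node, where a node is a piece of a gene between 2 splice or end sites, and Psi is the fraction of RNA from 0 to 1 that includes it. The authors' Psi is 1 value per group, with no value per library, and the read depth behind it is unknown. The members had 144 of 125520 nodes in the table. Nodes were called at a probability over 0.9 and a difference over 0.1 in size, which are part of the study's own rule. That rule also asks for a minimum of reads at each node, which was not applied here, since the table as used holds no read totals. Some calls may therefore rest on few reads. Over all nodes 594 passed the limits on probability and difference. The study reports far fewer events under its full rule, so many calls over all nodes would not pass it. Which of the member nodes would pass the full rule was not tested. Of the member nodes 6 passed, against 0.473% of all nodes. Of the 6, 5 were 3′ end nodes, out of 30 in the members, where 2.08% of all 3′ end nodes passed, and 1 was a retained intron. None of the 79 core exon nodes passed, where 0.147% of all core exon nodes did.

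The core exons of the members differed little. Their median difference was 0.184 percentage points in size, against 0.404 over all 98533 core exon nodes, and in 61 of 79 Psi was over 0.95 with Control gRNA. The members and all nodes were not matched for level or for Psi, so these medians do not set the members apart. Only 1 core exon node of the members differed by over 5 points, the 95-base exon of Mbnl2. Its Psi was 0.312 with Control gRNA and 0.236 with Tardbp gRNA. Its counterparts were at 0.909 and 0.922 in Mbnl1 and at 0.971 and 0.985 in Mbnl3. By this measure the paralogs thus used an exon that shares 67 of its bases at very unlike levels, in both groups. Rebuilt per library, as given below, the order of Mbnl1 and Mbnl2 was the reverse.

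The 54-base exon was mostly skipped in both genes that have it. Psi was 0.0627 and 0.0571 in Mbnl1 and 0.167 and 0.207 in Mbnl2, with Control gRNA and Tardbp gRNA. The 36-base exon was mostly included in Mbnl1 (0.931 and 0.952), the widest core exon difference of that gene at 2.09 points, and mostly skipped in Mbnl3 (0.0478 and 0.0588). The widest difference in Mbnl3 was 1.39 points, in the 95-base exon.

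In the PTB genes, the 34-base exon printed above was nearly always included in Ptbp1 (0.989 and 0.975) and Ptbp3 (0.995 and 0.992). In Ptbp2 it was included at 0.377 and 0.270, a difference of -10.7 points that did not reach the probability of 0.9. The 78-base exon of Ptbp1 was at 0.406 and 0.361, a difference of -4.46 points. In Ptbp3 the widest core exon difference was -1.18 points, in a different coding exon of 34 bases near the 5′ end (chr4:59546149-59546182, 0.230 and 0.218).

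Among the CELF genes and Qk, the 144-base exon of Celf2 was at 0.755 and 0.770. In Celf1 the widest was a 53-base exon outside the coding sequence (chr2:90954289-90954341), at 0.0769 and 0.0902. In Qk it was a 143-base coding exon (chr17:10282839-10282981), at 0.948 and 0.924. All of these differences were under 3 points.

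Inclusion was also rebuilt per library from transcript counts. Of the 40 internal member nodes that could be tested, none was called by limma, against 0.057% of 17540 nodes, with 5 at an unadjusted p under 0.05 and none at an adjusted p under 0.05. For the Ptbp1 78-base exon it was 0.518 ± 0.205 (SD, n = 8) with Control gRNA and 0.399 ± 0.129 with Tardbp gRNA (adjusted p = 0.913), and for the Mbnl2 54-base exon 0.179 ± 0.120 and 0.231 ± 0.0934 (adjusted p = 0.914), in each case on the same side as Psi and within the spread of the replicates. The Mbnl2 95-base, Mbnl1 36-base, Ptbp1 34-base and Celf2 144-base exons also differed in the same direction as Psi, though none of these differences passed. In the Mbnl1 36-base exon the means were 0.7362 with Control gRNA and 0.7366 with Tardbp gRNA, so its direction says nothing. The Mbnl1 54-base and 95-base exons and the Mbnl3 36-base exon differed in the opposite direction. So did the core exons with the widest Psi difference in Ptbp3 and in Celf1. The 2 measures did not give the same levels everywhere either. The Mbnl1 54-base exon was at 0.385 ± 0.171 and 0.477 ± 0.161 in the rebuilt measure, and the Mbnl2 95-base exon at 0.940 ± 0.0317 and 0.935 ± 0.0159, both far above their Psi, so the level of either exon depends on the measure. The Mbnl1 95-base exon was at 0.589 ± 0.0904 and 0.579 ± 0.105, below its Psi. In the rebuilt measure the 95-base exon was thus higher in Mbnl2 than in Mbnl1, the reverse of Psi.

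**Figure D4:**
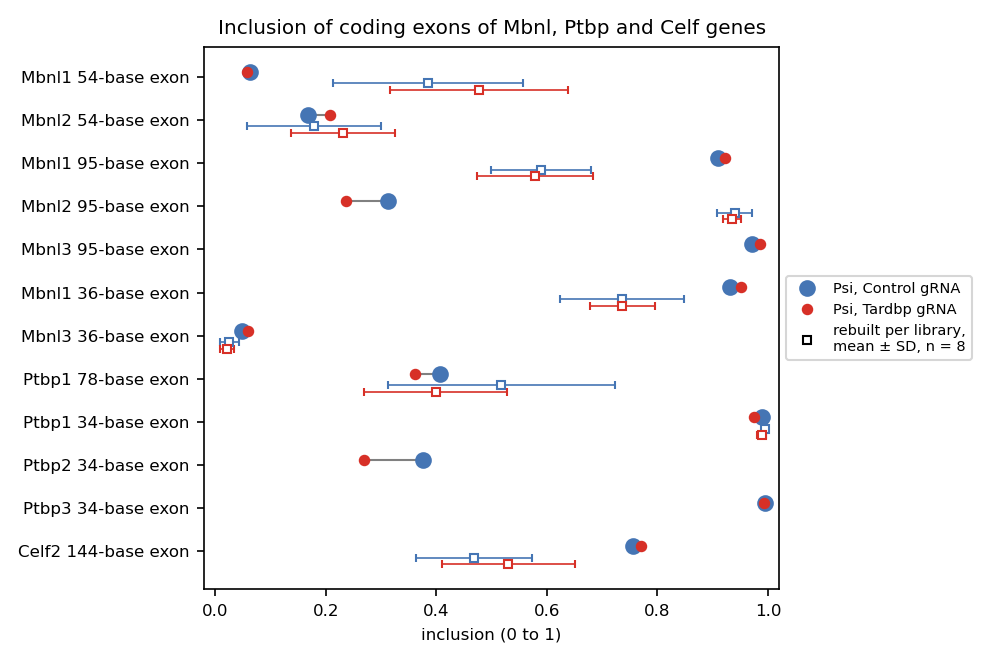
Inclusion (x axis, 0 to 1) of the coding exons printed above, as the authors' Psi per group (filled circles, blue for Control gRNA and red for Tardbp gRNA) and, where it could be computed, as rebuilt per library (open squares, mean ± SD, n = 8). By Psi the widest gap between groups is in the Ptbp2 34-base exon (0.377 and 0.270), and the 95-base exon is near 0.3 in Mbnl2 and above 0.9 in Mbnl1 and Mbnl3.

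The 3′ end nodes carried most of the differences in Psi. The Psi values of the 3′ end nodes of 1 last exon sum to about 1, so a rise in one goes with a fall in others and the nodes are not separate events. In Mbnl1, which has 7 such nodes in its last exon, Psi fell at the 1-base node chr3:60629381-60629381 from 0.298 to 0.115 and rose at chr3:60629732-60629748, which ends 367 bases further along, from 0.353 to 0.572. The last 2 nodes, which span 19 bases together, held 0.528 of the ends with Control gRNA and 0.842 with Tardbp gRNA. The read depth at nodes this short is unknown. The study names Mbnl1 among genes whose 3′ region changed by both Whippet and another program, DaPars. DaPars was not run here, and its sites were not compared with these nodes.

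In Ptbp3 the same direction was seen over a longer distance. Psi fell at chr4:59475259-59475710 from 0.169 to 0.0186, and rose at chr4:59472048-59475258 from 0.311 to 0.457 and at chr4:59471868-59472047 from 0.184 to 0.302, on the - strand. The last 2 nodes, of 3391 bases together, held 0.495 of the ends with Control gRNA and 0.759 with Tardbp gRNA. The nodes named here in Mbnl1 and Ptbp3 lie outside the coding sequence.

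The remaining node that passed was an 88-base retained intron of Celf1 between its last exons (chr2:91013403-91013490), with a Psi of 0.166 with Control gRNA and 0.274 with Tardbp gRNA. Rebuilt per library, it was 0.160 ± 0.0497 and 0.133 ± 0.0572 (SD, n = 8, adjusted p = 0.913), with the opposite sign. In Celf2, 2 nodes of an alternative last exon differed by more than any called node, from 0.446 to 0.782 and from 0.553 to 0.216, and did not reach the probability of 0.9.

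Rebuilt per library as the share of counts in transcripts that end in a node, none of the 30 member 3′ end nodes was called by limma, with 4 at an unadjusted p under 0.05 and none at an adjusted p under 0.05, against calls in 0.17% of 10589 such nodes. The last 2 nodes of Mbnl1 held 0.137 ± 0.0552 (SD, n = 8) with Control gRNA (0.0470 to 0.215, median 0.135) and 0.247 ± 0.102 with Tardbp gRNA (0.142 to 0.445, median 0.217). Those of Ptbp3 held 0.747 ± 0.0764 (0.638 to 0.875, median 0.758) and 0.827 ± 0.0652 (0.751 to 0.946, median 0.811). The ranges overlapped in both genes, and the levels in Mbnl1 were well below those of Psi. Of the nodes that passed by Psi, in Mbnl1 the node at chr3:60629381-60629381 was at 0.0581 and 0.0553 and that at chr3:60629732-60629748 at 0.0552 and 0.0604, and the higher mean of the last 2 nodes came mostly from the final node, which had not passed (0.0821 and 0.187). In Ptbp3 the nodes at chr4:59475259-59475710 (0.156 and 0.102) and chr4:59472048-59475258 (0.395 and 0.490) lay on the same side as Psi, and the node at chr4:59471868-59472047 lay on the other side (0.352 and 0.338).

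**Figure D5:**
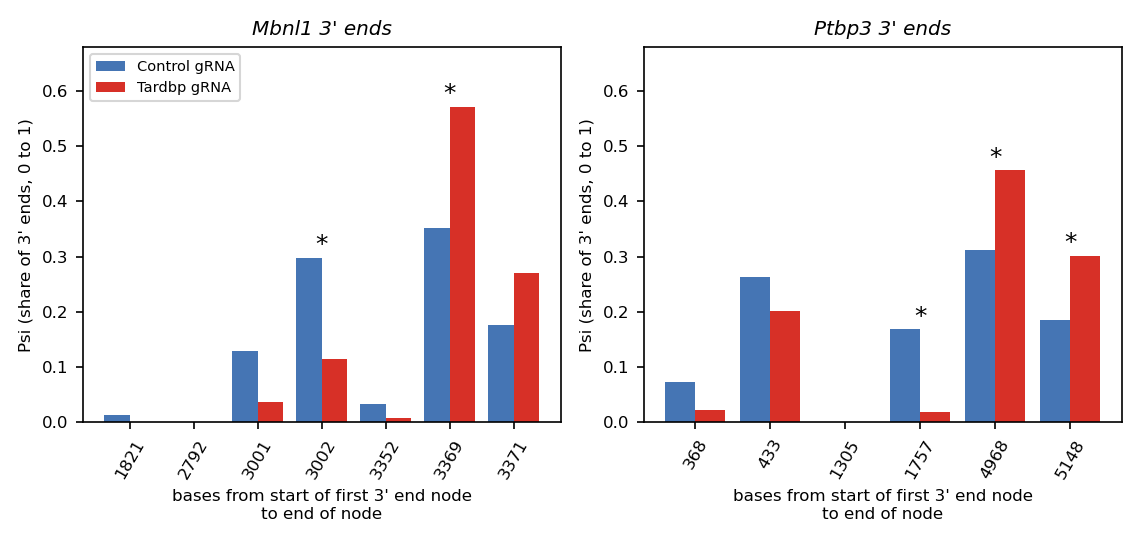
Psi (y axis, share of 3′ ends from 0 to 1, 1 value per group) of each 3′ end node of Mbnl1 and Ptbp3, ordered along the gene and named by the distance in bases from the start of the first such node to the end of the node, with blue for Control gRNA, red for Tardbp gRNA and an asterisk where the probability was over 0.9 and the difference over 0.1, with no minimum of reads applied. In both genes the last 2 nodes are higher and the earlier nodes lower or at most level with Tardbp gRNA, apart from Mbnl1 and Ptbp3 nodes with a Psi near 0.

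TDP-43 is known to bind GU repeats, and the last 1000 bases of the most abundant protein-coding transcript of each tested gene were searched for TGTGTG on the transcript strand, with overlapping matches counted. It was found in 3 of 8 members, 6 times in Celf1 and once each in Celf2 and Ptbp1, while 47.3% of 11316 transcripts of at least that length held it.

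Genes known as splicing targets of these families were read for Psi alone, with no test. In 12 such genes there were 146 core exon nodes, and none had both a probability over 0.9 and a difference over 0.1 (no minimum of reads applied). Of all 98533 core exon nodes 0.147% did. At so low a share the count says little about these genes. Besides the Ptbp2 exon above, the widest differences were 5.85 points in Tpm1 (76 bases, 0.783 and 0.842), 5.12 points in Numb (85 bases, 0.603 and 0.654) and 4.57 points in Map2k7 (115 bases, 0.883 and 0.929). In Pkm, whose paired exons are a standard target of PTB proteins, the widest was a 167-base exon at 0.0166 and 0.0197. In Lef1 it was -2.65 points and in Cd44 1.43 points.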

How the data were processed

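Sorted CD8+ T cells gave 16 libraries, 8 per group by the labels, made with SMART-Seq v4 and Nextera XT, which do not mark strand, and sequenced as pairs of 100-base reads. By the submitters' processing notes, the authors mapped reads to mm10 with HISAT2 2.1.0 and made estimated counts per gene and transcript with StringTie 2.1.0, and these deposited estimated counts were whole numbers, not normalized. Genes and transcripts were named from GENCODE M21 (GRCm38). Each table of counts had 10 columns that matched no sample here, which were not used. Lines without a gene name, 0.0836 to 0.132% of the counts, were left out. The authors' deposited Psi, from Whippet, is a fraction per group, with its probability. The letters of the 2 Psi columns were read as Control gRNA and Tardbp gRNA from the study's supplementary column names, and the deposited Psi difference was not used. The study's minimum of reads per node was not applied. Deposited counts of read pairs and the RNA concentration came from the facility.

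Tests of genes and transcripts used edgeR 4.0.16 in R 4.3.3 (quasi-likelihood test, TMM, filterByExpr with minimum count 10, Benjamini-Hochberg adjusted p under 0.05 over all features, two-sided, no covariate). Transcript shares were tested with limma 3.58.1, calling differences over 0.1 whose adjusted p was under 0.05. Inclusion in each library was rebuilt from transcript counts scaled by length, as those whose exons hold a node over those that span it, for nodes with a mean count over 50. TPM was computed from counts and annotated lengths. Approximate 95% intervals follow from the SE, and the prior count behind log2 CPM was 2. The methods describe separate recipient mice, and p-values rest on the spread between them. Cells were electroporated by group before transfer, so recipients may share an electroporation. Spread between electroporations would then not be in the p-values. Intervals of counting error were not used. Members and lists were chosen with earlier results of these data known. Named were all members, called members of the regulator list, called member transcripts and those with a share over 0.1, nodes past the limits on probability and difference and the core exon with the widest difference per member, and the most alike gene. The exons of 34, 36, 54 and 95 bases shared with paralogs were chosen after their values were seen. The same-numbered libraries deviated together in 2 of 8 pairs (r over 0.1, range -0.005 to 0.160), so numbers were not treated as pairs. Tests were run first on simulated data. Alternatives were DESeq2 1.42.0, other scalings, filters, covariates, a replicate block and leaving out each library.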

Additional observations from a re-analysis of the deposited data

Results flagged for a closer look

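Of 26 groups of 8 libraries examined for a single distant library, 3 held one, and chance gives about 1 in 20 groups. Qk was at 15.5 CPM in Control gRNA library 1, with the others from 9.17 to 11.7. Tardbp was at 110.4 CPM in Tardbp gRNA library 3, with the others from 129.8 to 147.2. The share of Mbnl1 counts in Mbnl1-225 was 0.0695 in the same library, with the others from 0.0217 to 0.0436. Without that library the retained intron share of Mbnl1 and both Mbnl1 transcript calls were kept, and the gene call of Mbnl1 was not (adjusted p = 0.0706).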

How the results depend on the processing

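Over all genes 7783 were called, and 2697 with the RNA concentration as a covariate, 1696 in libraries 1 to 3 alone and 7265 to 7734 when 1 library was left out. With a replicate block, of numbers that do not pair the libraries, 7645 genes and 4 members were called, with Mbnl1 not among them (adjusted p = 0.0938). Of transcripts, Mbnl1-224 (0.0111) and Mbnl1-225 (0.0277) stayed called with the block and Celf1-208 (0.0738), Mbnl3-202 (0.0785) and Ptbp3-206 (0.0520) did not, and 1 of the 3 Mbnl1 transcript shares kept an adjusted p under 0.05. Against 5 member genes called, 3 were called with no filter on low counts and 3 at an adjusted p under 0.01, 1 with the concentration as a covariate, 0 in libraries 1 to 3 alone and 3 to 5 when 1 library was left out. The 3 came without Control gRNA library 5 or Tardbp gRNA library 3. Against 9 other regulators called of 23 tested, 3 were called with the concentration, 2 in libraries 1 to 3 alone, and 8 to 10 of 23 or 24 tested when 1 library was left out. Against 5 member transcripts called, 3 were called with no filter and 3 to 6, not all from those 5, when 1 library was left out. Against 6 member nodes passing, 0 passed at a probability over 0.99 and 1 at a Psi difference over 0.2. The concentration is confounded with the groups, libraries 1 to 3 are fewer samples, and the cause of the other changes was not tested. No member share, rebuilt inclusion or 3′ end share was called under any alternative run. The depth behind Psi is unknown, which limits what short nodes can show.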
